A study of Mus musculus with 9 samples.

Results

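Leukocyte adhesion molecules are the surface proteins with which endothelium slows, holds and passes white blood cells. Here they are 8 genes chosen by name, of 52636 in the deposited count table: the immunoglobulin-family genes Icam1, Icam2, Vcam1, Mcam and Alcam, the selectin genes Selp and Sele, and Cd99l2. All 8 had enough counts to be tested, along with 14575 other genes. RNA was sequenced from mouse liver endothelial cells sorted as live, CD45-negative, CD31-positive cells that carried a VE-cadherin antibody injected into the living animal. The labels give 4 control samples of wild-type genotype and 5 samples of an Erg and Fli1 double knockout genotype, all taken 7 days after tamoxifen, which the protocol gives for both groups as the agent that induces deletion. The labels name neither the driver of the deletion, the targeted exons nor the mice's age at induction.

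Selectins catch passing leukocytes through sugar-bearing ligands, and the leukocytes then bind firmly when their integrins meet ICAM and VCAM proteins. Inflammatory cytokines induce E-selectin, VCAM-1 and ICAM-1 in many vascular beds, whereas P-selectin is also stored in Weibel-Palade bodies, the secretory granules of endothelium. Liver sinusoids are unusual in that leukocyte arrest there depends less on selectins than in the vessels of most organs. The transcription factors ERG and FLI1, both of the ETS family, act in endothelium and in blood cells.

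Libraries held 26791371 to 36401682 counts, so 1 count was worth 0.0260 to 0.0368 CPM (counts scaled to a common library size by TMM). Erg fell from 311.6 ± 17.8 to 142.9 ± 10.9 CPM, but gene-level counts of Fli1 rose from 100.1 ± 8.01 to 147.4 ± 22.5 CPM, so the second group is called the libraries labelled knockout. Values are mean ± SD with n = 4 controls and n = 5 libraries labelled knockout. Genes are called changed where edgeR (quasi-likelihood F-test) gave a Benjamini-Hochberg adjusted p, computed across the 14583 tested genes, of less than 0.05. The 7 endothelial markers summed to 11495 and 11958 CPM in replicates 2 and 3 labelled knockout and to between 15371 and 17056 CPM in the other libraries. None of the 7 was near 0, and 2 of them, the angiopoietin receptor gene Tek and its relative Tie1, were called lower. Whether each sample came from its own mouse is not labelled. By the sex-linked genes Xist and Ddx3y, control replicate 3 and replicates 3, 4 and 5 labelled knockout were female and the others male. Each group therefore held RNA of more than 1 mouse. The tests reflect the spread among libraries, part of which may still be technical. In bulk RNA, fewer cells of a type and less RNA per cell cannot be told apart.

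Vcam1, Icam1 and Selp were lower in the libraries labelled knockout, by 4.19-fold, 2.08-fold and 2.48-fold. Icam2, Sele, Mcam, Alcam and Cd99l2 did not pass the threshold, and 0 of the 8 were called higher. Over all tested genes 29.3% were called, 14.8% as lower and 14.5% as higher, so a share of called genes as large as 3 of 8 does not by itself set these genes apart. Control and knockout-labelled values did not overlap for the 3 called genes, as for 3938 of the 14583 tested genes. The median log2 fold change was -0.39 over the 8 genes and 0.01 over all tested genes. The summed level of 7 liver sinusoidal endothelial markers was also lower without overlap, at 20563 to 23090 CPM in controls and 9194 to 15828 CPM in the libraries labelled knockout, with none at 0. Of these markers Clec4g, Fcgr2b and Gpr182 were called lower, and Stab2, Lyve1, Oit3 and Mrc1 did not pass the threshold. The part of this shift in the levels of Vcam1, Icam1 and Selp was not tested. Without replicates 2 and 3 labelled knockout the log2 fold changes were -2.06, -0.94 and -1.23, and the 3 genes were still called (edgeR adjusted p = 9.56e-05, 0.00478 and 7.95e-04).

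**Figure D1:**
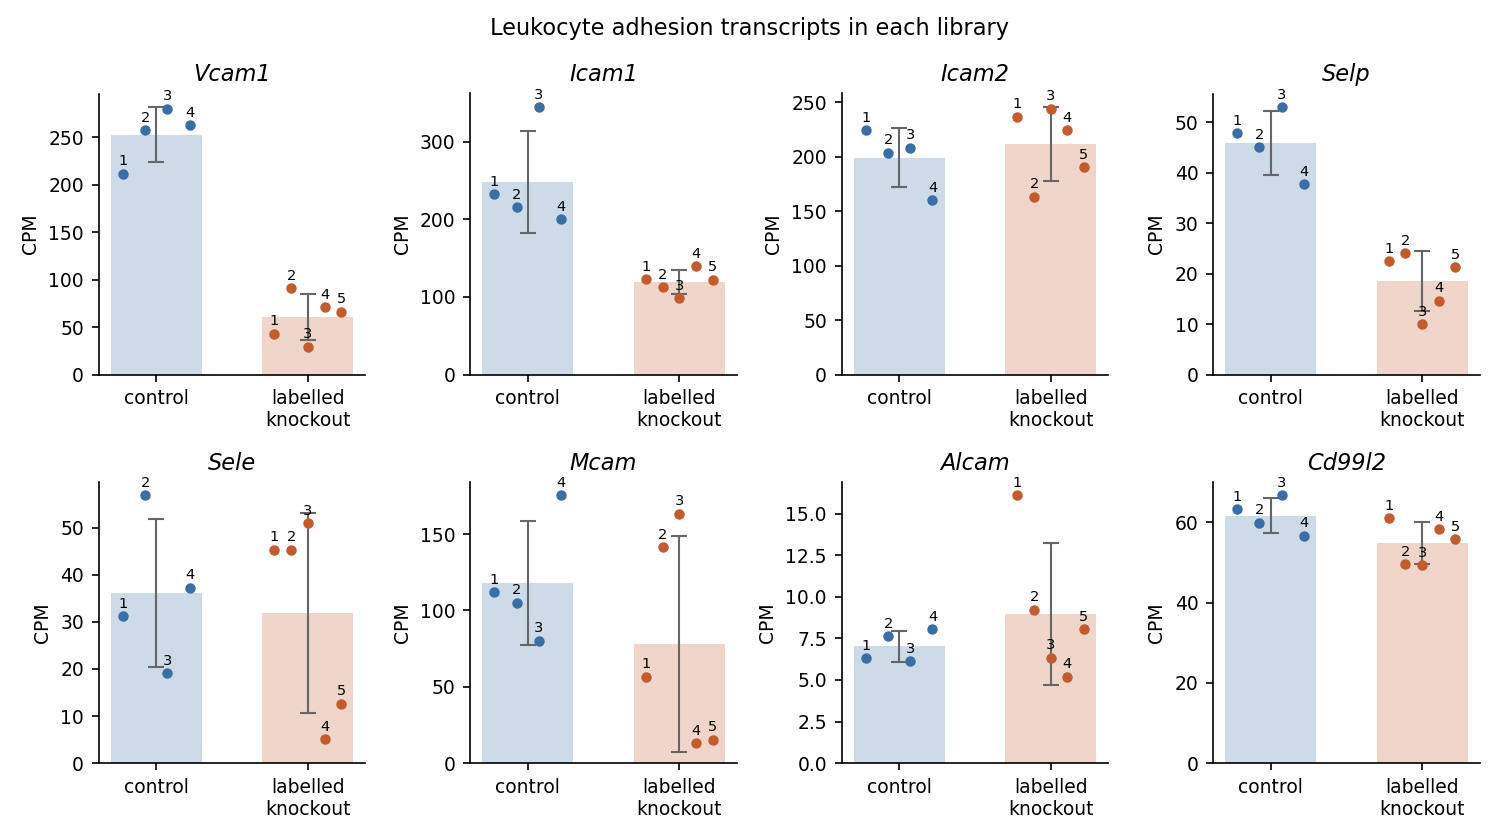
Abundance in CPM (vertical axes, linear from 0) of the 8 adhesion transcripts in each library, with controls in blue and libraries labelled knockout in orange. Bars are group means, error bars are SD, points are libraries with their replicate numbers. Vcam1, Icam1 and Selp show no overlap between the groups, whereas Mcam and Sele spread widely within the libraries labelled knockout.

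Vcam1 (ENSMUSG00000027962, GRCm38 chromosome 3, 116109949 to 116129688, minus strand) encodes the ligand of the leukocyte integrin VLA-4. Its level was 211.7, 257, 280.0 and 262 CPM in control replicates 1 to 4, and 43.0, 91.2, 29.6, 71.2 and 66.4 CPM in replicates 1 to 5 labelled knockout. The highest library labelled knockout, replicate 2, stayed far below the lowest control, replicate 1. The group means were 253 ± 29.1 and 60.3 ± 24.2 CPM. Their log2 fold change was -2.07 ± 0.28 (SE), with edgeR adjusted p = 7.66e-04. Vcam1 is also a transcript of Kupffer cells, the resident macrophages of liver. The 6 Kupffer cell markers summed to 62.7 to 286 CPM in controls and to 55.2 to 441 CPM in the libraries labelled knockout, with 0 markers at 0. That sum was highest in replicate 2 labelled knockout, which also had the highest Vcam1 of its group, whereas among the controls the highest Vcam1 lay in replicate 3, where the sum was lowest. Kupffer cells bear CD45 and the sort took CD45-negative cells, but RNA of these markers was still counted in every library. The part of Kupffer cell RNA in the Vcam1 levels was not tested.

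Icam1 (ENSMUSG00000037405, chromosome 9, 21015985 to 21028817, plus strand) encodes the ligand of the integrins LFA-1 and Mac-1. It lay at 232, 215, 345 and 199.9 CPM in control replicates 1 to 4. In the libraries labelled knockout it lay at 123, 113, 98.3, 139.6 and 122 CPM. Control replicate 3 was the highest by a wide margin, and every library labelled knockout was below every control. The means were 248 ± 65.7 and 119 ± 15.2 CPM, or -1.06 ± 0.16 (SE) as log2 fold change (edgeR adjusted p = 0.00136). Without control replicate 3 the log2 fold change was -0.86 (edgeR adjusted p = 0.00152).

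Icam2 (ENSMUSG00000001029, chromosome 11, 106377656 to 106388075, minus strand) encodes a second LFA-1 ligand, which endothelium carries without induction. Control replicates 1 to 4 held 224, 204, 208 and 160.3 CPM, and replicates 1 to 5 labelled knockout held 237, 163, 244, 224 and 190.0 CPM. The ranges lay almost on top of each other. The log2 fold change was 0.09 ± 0.14 (SE), with a 95% interval from -0.22 to 0.40 and edgeR adjusted p = 0.674. The interval excludes a change of the size seen for Icam1 in either direction, but a smaller change cannot be told from none.

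The promoters of Icam1, Selp and Sele are shown because the targeted factors bind ETS sites, whose core is GGAA, and because the first 2 genes fell and Sele did not pass the test. The RefSeq promoter table (GRCm38.p6) held 6 of the 8 genes, without Icam2 and Vcam1. The sequences are the 250 bases before each RefSeq start, on the plus strand, at chr9:21015690-21015939, chr1:164115014-164115263 and chr1:164047984-164048233. The RefSeq start of Icam1 lies upstream of the GENCODE start given above, and those of Selp and Sele coincide with it. Capitals mark every GGAA, or TTCC where the core lies on the other strand.
Icam1: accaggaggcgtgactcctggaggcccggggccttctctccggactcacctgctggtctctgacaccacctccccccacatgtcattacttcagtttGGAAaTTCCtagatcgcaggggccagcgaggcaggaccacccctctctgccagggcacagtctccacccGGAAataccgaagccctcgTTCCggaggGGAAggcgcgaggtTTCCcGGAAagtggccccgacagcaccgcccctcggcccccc
Selp: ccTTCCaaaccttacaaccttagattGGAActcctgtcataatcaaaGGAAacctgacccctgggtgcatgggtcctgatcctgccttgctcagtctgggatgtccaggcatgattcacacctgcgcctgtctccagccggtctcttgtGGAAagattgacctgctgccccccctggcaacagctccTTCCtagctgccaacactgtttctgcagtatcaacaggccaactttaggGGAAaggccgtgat
Sele: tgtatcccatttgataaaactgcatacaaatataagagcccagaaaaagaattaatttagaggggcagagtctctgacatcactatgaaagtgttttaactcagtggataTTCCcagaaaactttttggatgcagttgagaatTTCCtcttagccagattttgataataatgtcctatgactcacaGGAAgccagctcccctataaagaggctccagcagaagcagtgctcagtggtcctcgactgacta

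The Icam1 window held 7 cores, that of Selp 6 and that of Sele 3, and the windows of Cd99l2, Mcam and Alcam held 5, 1 and 1. The Mcam window runs past the GENCODE start of Mcam, and the Alcam window lies inside the GENCODE span of Alcam. At least 1 core was present in 93.4% of 32851 promoter windows of this length (median 3). The longer form CCGGAA, searched on both strands, occurred 3 times before Icam1 and in 0 of the other 5 windows, against 12.03% of all windows. A loose NF-kB-like pattern, GGNNNTTCC on either strand, occurred in the windows of Icam1 (2 positions), Selp (1) and Sele (1), and in 15.7% of all windows. Each match of that pattern contains a TTCC or GGAA and so overlaps an ETS core. A match describes these letters only, since no binding was measured.

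Selp (ENSMUSG00000026580, chromosome 1, 164115264 to 164150026, plus strand) encodes P-selectin. It lay at 47.8, 45.1, 53.1 and 37.8 CPM in control replicates 1 to 4, and at 22.4, 24.1, 10.03, 14.7 and 21.3 CPM in replicates 1 to 5 labelled knockout. No library labelled knockout reached the lowest control, and replicate 3 was the lowest of all. The log2 fold change was -1.31 ± 0.24 (SE, edgeR adjusted p = 0.00307), from a mean of 46.0 ± 6.37 to 18.5 ± 5.93 CPM. Platelets and megakaryocytes also make P-selectin. The 8 markers of those cells had a summed level of 27.01 to 40.2 CPM in controls and 68.0 to 139.9 CPM in the libraries labelled knockout, with 0 of them at 0 in all libraries. Of the 7 tested, 5 were called higher, and Gp1ba (3.58 and 3.81 CPM on average) and Gp1bb were not. Most of the sum came from Pf4 and Itga2b, of which Itga2b averaged 26.4 CPM in controls and 79.5 CPM in the libraries labelled knockout. The platelet chemokine gene Pf4 rose from 2.76 ± 0.642 to 24.8 ± 3.18 CPM (edgeR adjusted p = 8.96e-06). The part of such RNA in the Selp values was not tested.

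Sele (ENSMUSG00000026582, chromosome 1, 164048234 to 164057677, plus strand) encodes E-selectin, which endothelium makes when cytokines act on it. Control replicates 1 to 4 held 31.3, 56.9, 19.1 and 37.2 CPM. Replicates 1 to 5 labelled knockout held 45.4, 45.3, 51.0, 5.16 and 12.7 CPM. Replicates 1, 2 and 3 labelled knockout lay inside the control range, and replicates 4 and 5 lay below every control. Replicates 4 and 5 were female, as was the lowest control, replicate 3. The highest library labelled knockout, replicate 3, was female as well. The log2 fold change was -0.18 ± 0.60 (SE), with a 95% interval from -1.52 to 1.16 and edgeR adjusted p = 0.850. The sign of this estimate changed when a sex term was added or when 1 of several libraries was left out.

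Mcam (ENSMUSG00000032135, chromosome 9, 44134469 to 44142727, plus strand) encodes CD146, an adhesion molecule of endothelium and pericytes. It lay at 112, 105, 80.3 and 175 CPM in control replicates 1 to 4. In replicates 1 to 5 labelled knockout it lay at 56.6, 141, 163, 12.9 and 15.4 CPM. Replicates 2 and 3 were within the control range, replicate 1 was below it, and replicates 4 and 5 were far below it. The highest library labelled knockout was 12.7-fold above the lowest, against 9.88-fold for Sele, 3.08-fold for Vcam1 and 1.24-fold for Cd99l2. With all libraries the Mcam log2 fold change was -0.60 ± 0.70 (SE), with a 95% interval from -2.17 to 0.97 and edgeR adjusted p = 0.558. Without replicates 2 and 3 labelled knockout it was -2.05 (edgeR adjusted p = 0.0342), and without replicates 4 and 5, an alternative added after seeing the data, it was 0.03 (0.962).

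The summed level of 8 stellate cell and fibroblast markers was high and low in the same libraries labelled knockout as Mcam. It was 25.9 and 22.97 CPM in replicates 2 and 3, 11.9 CPM in replicate 1 and 4.82 and 5.38 CPM in replicates 4 and 5, against 6.74 to 11.4 CPM in controls. The sum rested mostly on Colec11 (0.810 to 10.6 CPM in the libraries labelled knockout), Dcn (1.002 to 10.7 CPM) and Rgs5 (0.812 to 6.73 CPM), and 5 of the 8 averaged under 1 CPM. Colec11 was called higher, and 6 others of the 7 tested did not pass the threshold. None of the markers was at 0 in all libraries, and their part in the Mcam values was not tested. The pericyte gene Rgs5 averaged 2.92 ± 1.04 and 3.08 ± 2.78 CPM in the 2 groups. The antisense gene Gm10687 overlaps exons of Mcam, and reads of the 2 genes cannot be told apart if strand was not used in counting. It lay at 4.92 to 6.94 CPM in controls and at 3.39, 4.44, 4.08, 0.994 and 1.17 CPM in replicates 1 to 5 labelled knockout, lowest in the same 2 libraries as Mcam.

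Alcam (ENSMUSG00000022636, chromosome 16, 52248996 to 52454074, minus strand) encodes the ligand of CD6 on T cells. It was a weak transcript, at 6.32, 7.62, 6.15 and 8.03 CPM in control replicates 1 to 4. In the libraries labelled knockout it lay at 16.1, 9.23, 6.34, 5.19 and 8.05 CPM, with replicates 1, 2 and 5 above the highest control, replicate 5 only just, and replicate 4 below every control. The log2 fold change was 0.35 ± 0.30 (SE, edgeR adjusted p = 0.409), and 0.04 without replicate 1 labelled knockout.

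Cd99l2 (ENSMUSG00000035776, chromosome X, 71420060 to 71492849, minus strand) encodes a relative of CD99 that serves the passage of leukocytes between endothelial cells. Control replicates 1 to 4 held 63.3, 59.9, 66.7 and 56.7 CPM. Replicates 1 to 5 labelled knockout held 61.0, 49.6, 49.3, 58.3 and 55.8 CPM, of which 3 lay below every control. It was the steadiest of the 8, with a coefficient of variation of 7.03% in controls and 9.51% in the libraries labelled knockout. The log2 fold change was -0.17 ± 0.09 (SE), with a 95% interval from -0.36 to 0.02 and edgeR adjusted p = 0.164. The gene is X-linked, and with a sex term (1 female control, 3 females labelled knockout) the value was -0.18 (edgeR adjusted p = 0.178).

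**Figure D2:**
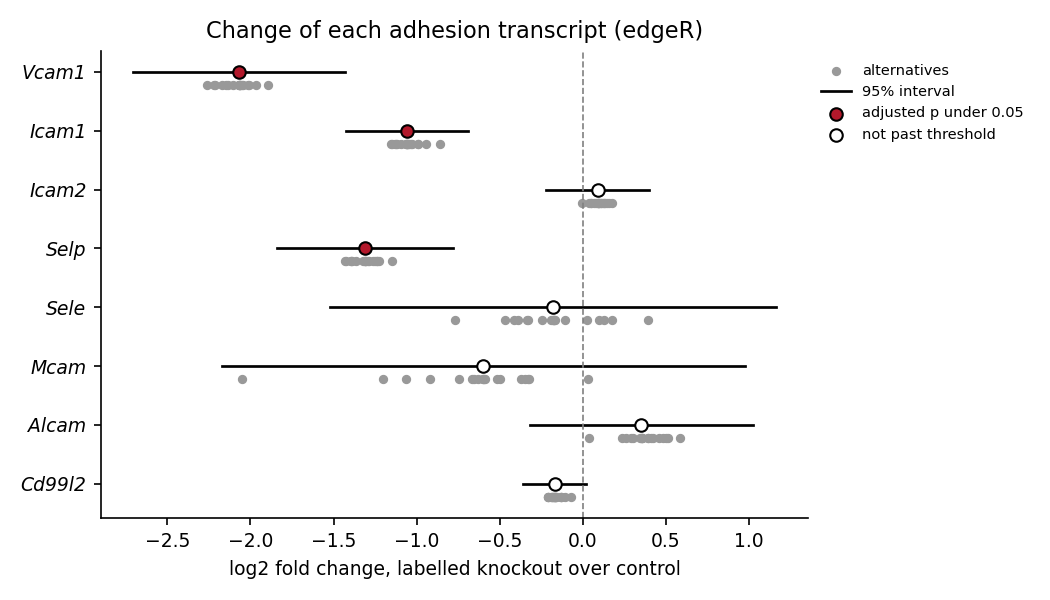
Log2 fold change of each adhesion transcript, labelled knockout over control (horizontal axis), from edgeR with its 95% interval, filled where the adjusted p was under 0.05. Grey points are the 19 alternative fits, which stay below 0 for Vcam1, Icam1 and Selp and lie on either side of 0 for Sele. Those of Icam2 and Mcam also cross 0, reaching -0.005 and 0.03.

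Levels can be compared between genes only per length of exon, here as CPM per kilobase of all annotated exons. In controls the order was Icam2 (104.6 ± 14.4), Icam1 (56.9 ± 15.1), Mcam (35.3 ± 12.1), Vcam1 (28.5 ± 3.28), Cd99l2 (12.6 ± 0.884), Sele (12.4 ± 5.41), Selp (10.4 ± 1.44) and Alcam (0.987 ± 0.132 CPM per kilobase). Icam2 stood above Icam1 in every control, and Alcam below all others. Icam1 overlapped Mcam, Mcam overlapped Vcam1, and Cd99l2, Sele and Selp overlapped one another. In the libraries labelled knockout Icam2 was again highest at 111 ± 17.8 and Alcam lowest at 1.26 ± 0.599 CPM per kilobase. Vcam1 dropped from the fourth to the sixth place, at 6.80 ± 2.73 CPM per kilobase, below the mean of Cd99l2 (11.2 ± 1.06), although their ranges touched in replicate 2, and inside the range of Sele (1.77 to 17.5).

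**Figure D3:**
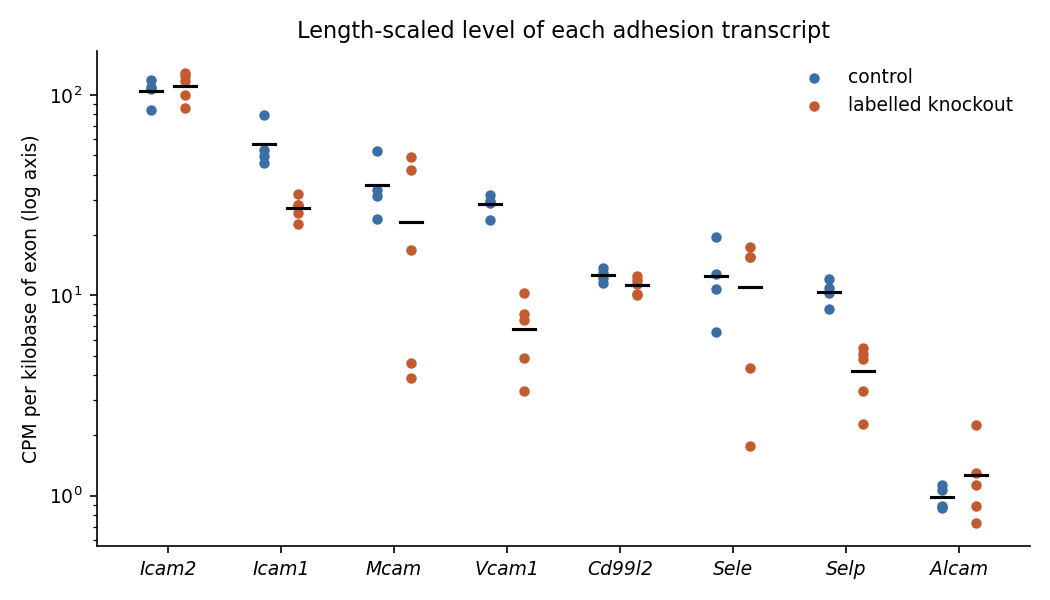
CPM per kilobase of exon (vertical log axis) of the 8 transcripts, ordered by the control mean, for each control (blue) and each library labelled knockout (orange), with bars at the group means. Icam2 leads in both groups, and the Vcam1 points move from near those of Mcam down to between those of Cd99l2 and Selp.

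Ratios of 2 transcripts within a library do not depend on scaling, and 4 pairs were tested with a two-sided exact permutation test over the 9 libraries, adjusted over the 4. The smallest p this design allows is 0.00794. Vcam1 fell by more than Icam1: the log2 ratio of their counts went from 0.05 ± 0.32 to -1.08 ± 0.56, a difference of -1.13 (exact p = 0.0159, adjusted 0.0317). The lowest control ratio, in replicate 3 (-0.300), lay just above the highest ratio labelled knockout, in replicate 2 (-0.304). Icam2 over Icam1 went from -0.29 ± 0.31 to 0.82 ± 0.31, a difference of 1.12 with no overlap (exact p = 0.00794, adjusted 0.0317). Of these LFA-1 ligand genes, controls held 0.604 to 0.966 Icam2 counts per Icam1 count, against 1.45 to 2.48 in the libraries labelled knockout.

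For the selectins, Sele over Selp had a log2 ratio of -0.44 ± 0.79 in controls and 0.40 ± 1.53 in the libraries labelled knockout (exact permutation p = 0.373, adjusted 0.373). Replicates 1, 2 and 3 labelled knockout, at 1.02, 0.91 and 2.34, lay above every control, and replicate 4, at -1.51, below every control. Mcam over Alcam went from 4.02 ± 0.34 to 2.54 ± 1.67 (exact permutation p = 0.151, adjusted 0.201), with replicates 1, 4 and 5 labelled knockout below every control and replicates 2 and 3 inside or above their range. With 1 library left out, the adjusted exact permutation p of the Vcam1 and Icam2 ratios lay between 0.0571 and 0.107, in designs whose smallest unadjusted p is 0.0179 or 0.0286.

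**Figure D4:**
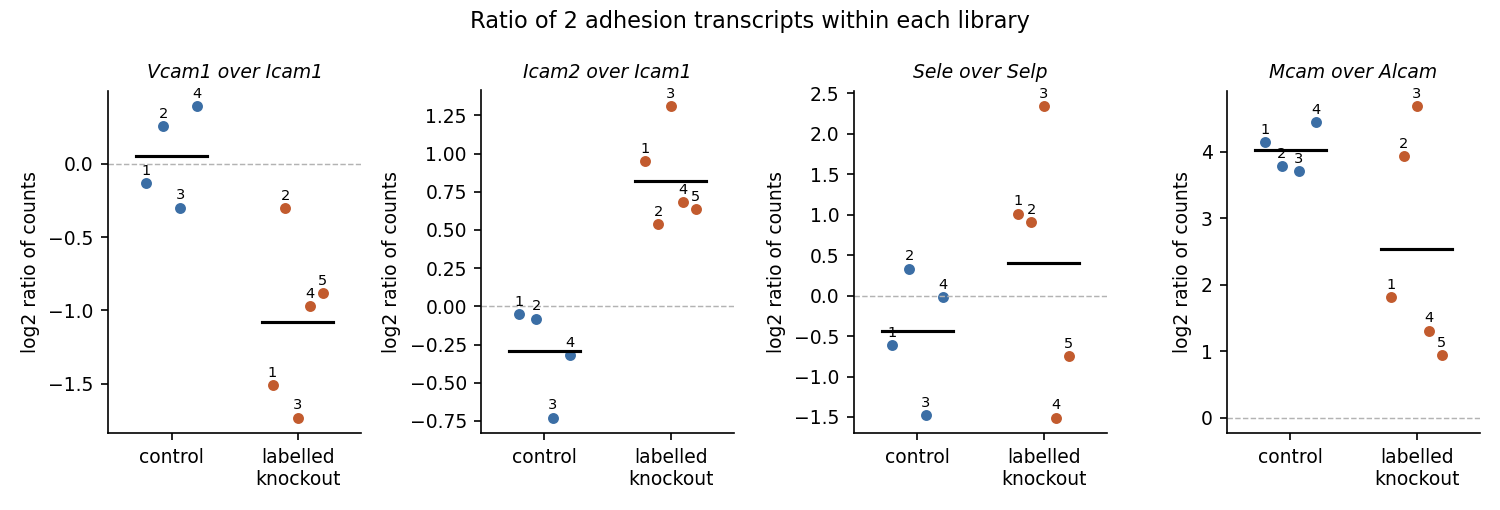
Log2 ratio of the counts of 2 adhesion transcripts in each library (vertical axes), with bars at the group means and replicate numbers beside the points. Vcam1 over Icam1 is lower and Icam2 over Icam1 higher in all libraries labelled knockout, and the other 2 ratios split that group into replicates 1 to 3 against 4 and 5, or 2 and 3 against the rest.

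Around these genes, 108 other genes of adhesion and its machinery were tested in 7 lists, and 23 were higher, 24 lower and 61 not past the threshold, with a median log2 fold change of -0.03. Over all tested genes 14.8% were called lower and 14.5% higher, and the list counts here and below are to be read against those shares. Of 24 tested genes of endothelial adhesion and transmigration, 7 were lower and 4 higher (median -0.30). The junctional adhesion molecule gene Jam3 fell from 13.5 ± 1.92 to 6.58 ± 0.922 CPM, and Podxl, which encodes the sialomucin podocalyxin, from 705 ± 70.8 to 386 ± 57.1 CPM. Jam2, named after its values were seen, encodes a VLA-4 ligand as Vcam1 does and fell from 592 ± 127 to 156 ± 80.0 CPM (edgeR adjusted p = 0.00439). The 4 that rose were the nectin-like receptor gene Pvr, from 79.7 ± 7.78 to 288 ± 68.3 CPM, and Nectin2, Cd151 and Cd9, which were named after their values were seen. The last 2 encode tetraspanins, which organise adhesion receptors in the membrane. Glycam1, a mucin gene of lymph node vessels, had 0 counts, and the gut addressin gene Madcam1 lay at 0.0526 ± 0.0651 and 0.0369 ± 0.0343 CPM and was too low to test. Without replicates 2 and 3 labelled knockout, 12 genes of this list in place of 7 were lower.

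Inducers were mixed. Of 26 cytokine receptor and NF-kB genes, 5 were higher and 4 lower, with a median log2 fold change of 0.00. The endotoxin receptor gene Tlr4 rose from 46.1 to 71.1 CPM on average (log2 fold change 0.62 ± 0.08, SE, edgeR adjusted p = 5.46e-04). The NF-kB subunit genes Rel and Nfkb1 fell by 0.86 and 0.39 on the log2 scale, and Irf1, a transcription factor of interferon and cytokine responses, fell from 383 ± 110 to 188 ± 57.4 CPM with overlapping groups. The TNF receptor gene Tnfrsf1a lay at 602 ± 50.2 and 539 ± 117 CPM, and the NF-kB subunit gene Rela at 142 ± 6.42 and 138 ± 6.67 CPM, with edgeR adjusted p of 0.494 and 0.631. The count of 5 higher genes was unsteady, and it was 1 without control replicate 1, 2 or 3 and 1 with replicate number as a term.

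Of 16 genes of Weibel-Palade bodies, where P-selectin is stored, 4 were higher and 4 lower. Rab3d and Rab27a encode GTPases of granule release and fell by 0.72 and 2.16 on the log2 scale, the second named after its values were seen. The SNARE gene Vamp8 rose by 0.50 and the endothelin gene Edn1 by 1.46 on that scale. Plat, which encodes tissue plasminogen activator, rose by 6.34 on that scale, from 1.25 ± 0.183 to 102 ± 105 CPM. In the libraries labelled knockout it ran from 21.3 to 226 CPM. Vwf, whose product builds the granule, lay at 140 to 227 CPM in controls and 37.9 to 295 CPM in the libraries labelled knockout (edgeR adjusted p = 0.321). Of 9 tested enzymes that make selectin ligands, 3 were higher and 3 lower: the tyrosine sulfotransferase gene Tpst1 rose by 1.54 and the galactosyltransferase gene B4galt1 by 0.80 on the log2 scale, and the sulfotransferase gene Chst2 fell by 0.63. St3gal4, which encodes a sialyltransferase, fell by 0.35 (edgeR adjusted p = 0.0212), a call that ended with a sex term (0.0501) and without control replicate 1 (0.0634) or 2 (0.0521).

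Beneath the membrane, 4 of 14 linker and docking signal genes rose and 3 fell. The actin crosslinker gene Flna, whose product binds the tail of ICAM-1, rose from 331 to 732 CPM on average (log2 1.15 ± 0.19, SE, edgeR adjusted p = 0.00169). Cttn (cortactin) rose by 0.52, the GTPase gene Rhog by 0.48 and the kinase gene Src by 2.37 on the log2 scale. Of 10 sheddases and related genes, 3 rose and 2 fell. The membrane metalloprotease gene Mmp14 rose from 495 to 963 CPM on average, and Rhbdf1, which encodes a carrier of the sheddase ADAM17, rose by 0.96 on the log2 scale. The disintegrin gene Adam15 fell by 1.18 on that scale. The rise of Adam10 (log2 0.42, edgeR adjusted p = 0.0277) ended with a sex term (0.0577) and without 6 of the 9 libraries taken singly.

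The receptors for these proteins on leukocytes were low in cells sorted as CD45-negative, apart from the broadly expressed integrin gene Itgb1 at 1047 CPM in controls. Of 10 tested, Itgb7 fell from 10.8 ± 2.47 to 3.93 ± 1.63 CPM, and 9 did not pass the threshold. The integrin gene Itga4, a subunit of VLA-4, lay at 1.58 CPM in controls and 2.87 CPM in the libraries labelled knockout on average, and Itgal, of LFA-1, at 11.2 and 11.7 CPM. The 10 leukocyte markers summed to 49.5 to 120.2 CPM in controls and 38.2 to 181 CPM in the libraries labelled knockout, with overlapping ranges. Lyz2 and Csf1r made up most of these sums. The neutrophil genes S100a8 and S100a9 rose without overlap, from 0.610 ± 0.601 to 3.60 ± 1.83 CPM and from 1.05 ± 0.944 to 5.79 ± 3.11 CPM (edgeR adjusted p = 0.0122 and 0.0188), and 6 of the 8 tested leukocyte markers did not pass.

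**Figure D5:**
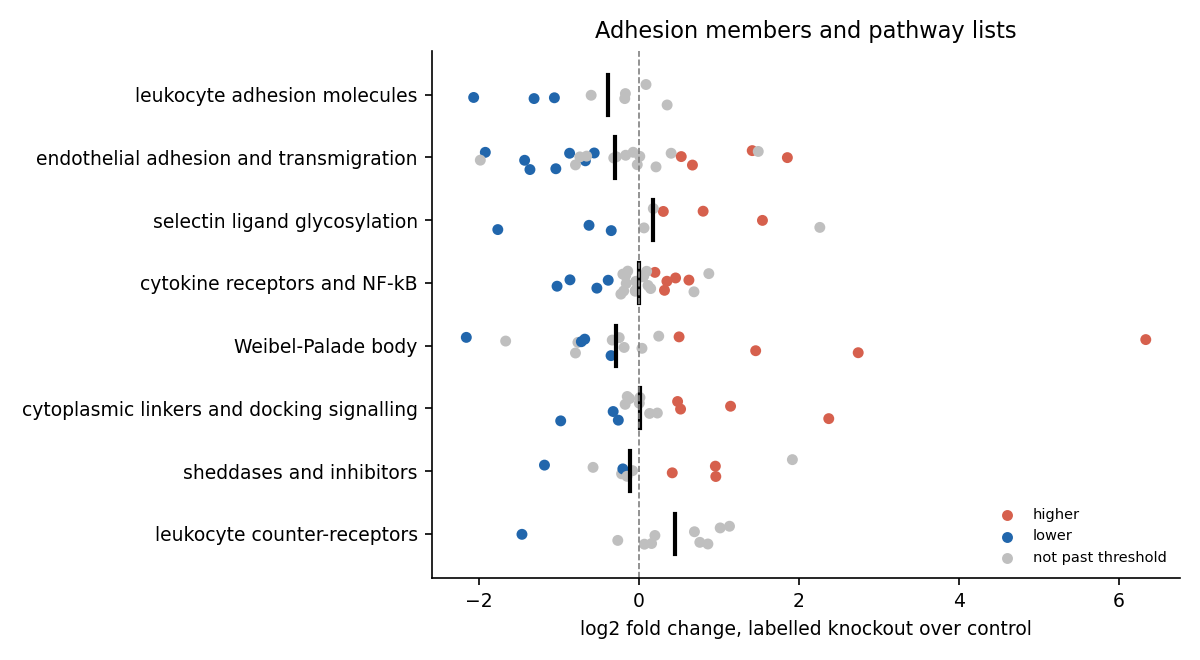
Log2 fold change (horizontal axis) of each tested gene in the adhesion group and the 7 lists around it, red where called higher, blue where called lower and grey otherwise, with black bars at list medians. Called genes lie on either side of 0 in 6 of the lists. The 3 called genes of the adhesion group and the 1 called leukocyte counter-receptor gene lie below 0.

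For each called member, 8644 genes with at least 10 CPM were ranked by mean absolute difference in centred log2 CPM over the 9 libraries. Values were centred but not scaled, so the measure follows the size of a change as well as its shape. The genes nearest to Icam1 were Cyb5a (0.0794) and Snx29 (0.101). Nearest to Vcam1 were the lipid phosphatase gene Plpp3 (0.215) and the adaptor gene Sh2d3c (0.224). Nearest to Selp were Sfn (0.186) and Man2b1 (0.187), which encode a 14-3-3 protein and a lysosomal mannosidase. The match to Icam1 was the closest of the 6 and that to Vcam1 the loosest.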

How the data were processed

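Per the labels, polyadenylated RNA libraries were made with an unstranded or a stranded TruSeq kit, without saying which library had which. The authors deposited raw counts per Ensembl gene, 1 column per sample, and 0 columns were left unused. The submitters' processing notes name STAR 2.7.6a, FastQC 0.11.5 and the build GRCm38. For the counting program and strand use, the sources used here give nothing. Symbols, coordinates and exon lengths came from GENCODE M21 (GRCm38), which named 52489 of the identifiers. Of the listed genes, Cd99 had no match. Counts were filtered with filterByExpr (minimum count 10, minimum total 15), TMM-scaled and fitted in R 4.3.3 with edgeR 4.0.16 (robust glmQLFit, glmQLFTest, no covariate). An SE is the log2 fold change over the square root of F. Ratios used counts plus 0.5. Centred log2 CPM used an offset of 0.5 CPM. No 2 libraries of a group were alike within counting noise (chi-square over degrees of freedom 20.3 to 182).

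The 8 genes, the lists and the rule for named genes (the 8, Erg and Fli1, up to 4 list members by smallest p, the 2 nearest patterns) were chosen with earlier results of these data known. Sex was read from Xist against Ddx3y. Alternatives were DESeq2 1.42.0, limma-voom (limma 3.58.1), RLE or total scaling, other filters, a replicate block, a sex term and left-out libraries. The fit was also tried on simulated data for 14313 genes. Shifts built in at 2-fold were recovered 60 times in 100, and those at 4-fold 83 times in 100. A further 17 calls were false. Each size of shift was built into 100 genes, a far smaller share than the 29.3% called in the real data. The recovery shares therefore need not hold for the real fit. Not passing the threshold does not by itself exclude a 2-fold shift. Of the 8 genes, the 95% intervals of Icam2 (-0.22 to 0.40) and Cd99l2 (-0.36 to 0.02) did not reach that size.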

Additional observations from a re-analysis of the deposited data

How the results depend on the processing

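Vcam1, Icam1 and Selp kept their direction and their call under all 19 alternatives, with log2 fold changes from -2.26 to -1.89, -1.16 to -0.86 and -1.43 to -1.15. The Icam2 estimate turned to -0.00536 without control replicate 4. That of Sele turned from -0.18 to 0.17 with a sex term, 0.12 without control replicate 2, 0.10 and 0.03 without replicate 4 or 5 labelled knockout, and 0.39 without both, and was -0.41 without replicate 3 and -0.77 without replicates 2 and 3. That of Mcam turned to 0.0304 without the same 2 (chosen once the data had been seen). The replicate block gave 1375 lower and 1296 higher genes in place of 2161 and 2110, and all 3 calls held under it (highest edgeR adjusted p = 0.0270, Icam1). The labels state no pairing by replicate number. Deviations of same-numbered replicates correlated at 0.319, -0.0491, -0.0138 and -0.355, and only control replicate 1 correlated best with its own number. Whether same-numbered libraries shared a batch cannot be told from these values. With 1 library left out, the log2 ratio difference ranged from -1.33 to -0.971 for Vcam1 over Icam1 and from 0.972 to 1.20 for Icam2 over Icam1. Neither ratio passed the threshold in these smaller designs. Leaving out 1 library labelled knockout allows no unadjusted exact p below 0.0286, and both ratios then had adjusted exact p = 0.0571. Failing the threshold with a library labelled knockout left out therefore says little about the ratios. Leaving out 1 control allows an unadjusted exact p of 0.0179. There the adjusted exact p was 0.0714 for both ratios, except 0.107 for Vcam1 over Icam1 without control replicate 2 or 4. Mcam over Alcam passed without replicates 2 and 3 labelled knockout (-2.67, adjusted exact p = 0.0381), and Sele over Selp without replicates 4 and 5 (1.87, adjusted exact p = 0.0381). The cause of these shifts was not tested. Fli1, St3gal4 and Adam10 lost their calls under the block, with log2 fold changes of 0.50, -0.37 and 0.36 in place of 0.56, -0.35 and 0.42. Counts of called genes moved by over 1.5 times in 6 of the 7 lists under at least 1 alternative. Alcam had the fewest control counts of the 8 genes, 904 in all.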

Other observations

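Some genes that lie near the adhesion genes were named after their values were seen. The coagulation factor gene F5 lies 1811 bases past the end of Selp and had a log2 fold change of 0.14 ± 0.45 (SE). Icam4 lies 555 bases past Icam1 and was too low to test. Icam5 lay at 1.08 ± 0.759 and 0.635 ± 0.678 CPM (edgeR adjusted p = 0.528). Next to Alcam, whose transcript did not pass the test, Cblb, which encodes a ubiquitin ligase, rose 4.45-fold from 42.2 ± 10.6 CPM (edgeR adjusted p = 1.63e-04). Ern1, a stress sensor gene 6574 bases from Icam2, rose 1.92-fold (edgeR adjusted p = 0.00152). The Vcam1 neighbour Extl2 lay at 17.2 ± 4.16 and 16.4 CPM.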
